A study of Mus musculus with 26 samples.

Results

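A set of 10 genes of blood vessel growth and of the endothelium, chosen by name, was followed in adipocytes and stromal vascular cells (SVCs) of mouse visceral fat. They are the ligands Vegfa, Vegfb, Angpt1 and Angpt2, the secreted lipase inhibitor Angptl4, the receptors Kdr, Flt1 and Tek, and the endothelial surface genes Pecam1 and Cdh5. Each symbol matched a single row in the count tables of both fractions, so 10 of 39017 genes were taken, and all 10 passed the filter on low counts in each fit. Their Ensembl identifiers are ENSMUSG00000023951 (Vegfa), ENSMUSG00000024962 (Vegfb), ENSMUSG00000022309 (Angpt1), ENSMUSG00000031465 (Angpt2), ENSMUSG00000002289 (Angptl4), ENSMUSG00000062960 (Kdr), ENSMUSG00000029648 (Flt1), ENSMUSG00000006386 (Tek), ENSMUSG00000020717 (Pecam1) and ENSMUSG00000031871 (Cdh5).

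Epididymal fat came from male wild-type C57BL/6J mice that were 9 to 10 weeks old when feeding began. Lean mice received a diet with 10% fat for 12 weeks (LFD), obese mice a diet with 60% fat for 12 weeks (HFD), and formerly obese mice 9 weeks of the HFD followed by 3 weeks of the LFD (SW). The adipocytes are the cells that floated after collagenase digestion and a slow spin, and the SVCs are the pellet after lysis of red cells, so neither fraction was sorted by a marker. The 15 libraries used are 3 per diet for adipocytes and, for SVCs, 1 LFD, 2 HFD and 3 SW. The library numbers used below (401 to 414, 212 and 236) are in no label, and nothing ties a library to a mouse, so the p-values measure the spread between libraries, which may be technical.

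Growing vessels respond to VEGF family ligands through the receptor tyrosine kinases KDR and FLT1 on endothelial cells. VEGFA binds both receptors and drives sprouting, while VEGFB binds FLT1, whose high affinity for VEGFA also makes it a decoy. Angiopoietins act on the endothelial receptor TEK: ANGPT1 steadies vessels, and ANGPT2, made by activated endothelium, can oppose it. Adipose tissue is densely supplied with capillaries, and fat cells themselves secrete VEGF ligands. ANGPTL4, a target of PPAR factors and of hypoxia, blocks lipoprotein lipase at the capillary wall.

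The 3 receptors and Vegfb are also shown by the 250 bases before the transcription start, because the receptor transcripts moved together over the adipocyte libraries and Vegfb was the ligand that differed most between diets. The windows are from RefSeq on GRCm38.p6, which has entries for 5 of the 10 genes, and are written 5′ to 3′ in the sense of the gene: Kdr from chr5:75978456-75978705 (minus strand), Flt1 from chr5:147726012-147726261 (minus strand), Tek from chr4:94739039-94739288 (plus strand) and Vegfb from chr19:6987652-6987901 (minus strand). Capitals mark the core of ETS factor sites, GGAAG or its reverse complement CTTCC, and the core of hypoxia response elements, ACGTG or GCGTG or their reverse complements CACGT and CACGC. No base lies in 2 matches in these windows.
Kdr: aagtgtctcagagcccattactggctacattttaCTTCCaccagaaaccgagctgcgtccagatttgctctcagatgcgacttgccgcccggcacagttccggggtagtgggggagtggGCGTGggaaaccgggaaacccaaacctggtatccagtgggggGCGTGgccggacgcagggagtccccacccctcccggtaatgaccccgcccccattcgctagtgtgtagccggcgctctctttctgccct
Flt1: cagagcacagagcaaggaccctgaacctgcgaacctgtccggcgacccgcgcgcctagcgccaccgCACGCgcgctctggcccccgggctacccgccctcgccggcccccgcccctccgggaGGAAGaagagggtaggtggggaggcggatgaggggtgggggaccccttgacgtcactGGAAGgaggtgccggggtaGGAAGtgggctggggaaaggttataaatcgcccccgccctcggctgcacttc
Tek: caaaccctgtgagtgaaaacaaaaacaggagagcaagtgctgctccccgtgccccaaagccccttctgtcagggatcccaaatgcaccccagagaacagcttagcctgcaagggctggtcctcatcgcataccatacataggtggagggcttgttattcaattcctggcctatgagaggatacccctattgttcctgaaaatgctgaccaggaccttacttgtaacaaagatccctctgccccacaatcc
Vegfb: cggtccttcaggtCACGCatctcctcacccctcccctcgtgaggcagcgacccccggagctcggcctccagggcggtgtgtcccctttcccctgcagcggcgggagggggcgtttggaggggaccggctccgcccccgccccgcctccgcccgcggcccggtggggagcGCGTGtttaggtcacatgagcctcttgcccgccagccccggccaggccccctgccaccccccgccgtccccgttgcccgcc

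Kdr held 1 ETS core and 2 hypoxia cores, Flt1 held 3 and 1, Vegfb held 0 and 2, and Tek had no match to either. Of 32851 windows of the same length, 64.1% held the ETS core and 38.6% a hypoxia core, so these letters are common before genes in general. The G+C content was 61.6% for Kdr, 70.4% for Flt1, 51.2% for Tek and 76.4% for Vegfb.

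Libraries held from 5781902 to 23725647 counts, and the 10 genes from 10 counts (Angpt1, in 2 SVC libraries) to 19379 counts (Angptl4, in an HFD adipocyte library). Levels are given in CPM, the count scaled to a common library total with TMM factors, which were set within a fraction except where both fractions are compared. Adipocyte markers followed the labels of the fractions. With all libraries scaled together, the 10 adipocyte markers summed to between 16630 and 45010 CPM in the adipocyte libraries. In the SVC libraries they summed to between 1308 and 5277 CPM. Neither fraction was free of other cells. On the joint scale the 12 macrophage markers summed to between 634 and 1027 CPM in LFD adipocytes. Their sum was 7320 to 8426 CPM in HFD and 5248 to 7697 CPM in SW adipocytes. In SVCs it was 9573 CPM in LFD, 10320 to 21520 CPM in HFD and 15480 to 22580 CPM in SW libraries. Markers of endothelium, 20 genes apart from the 10, were present in both fractions, with lower sums in SVCs than in adipocytes in each diet. On the joint scale their sum was 3597 to 4121 CPM in LFD, 1228 to 2115 CPM in HFD and 2154 to 2334 CPM in SW adipocytes, and 2723 CPM in LFD, 861 to 923 CPM in HFD and 1206 to 1592 CPM in SW SVCs. In bulk RNA, fewer cells of a type and less RNA per cell cannot be told apart.

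In lean adipocytes the 10 genes covered a wide range of levels, here compared per kilobase of the longest annotated transcript (GENCODE M21, all values as mean ± SD, n = 3). Angptl4 was highest, at 196.5 ± 36.3 CPM per kb, followed by Pecam1 (131 ± 15.9), Cdh5 (98.3 ± 16.2) and Vegfb (88.1 ± 24.1). Kdr (39.2 ± 7.19), Flt1 (25.0 ± 3.07), Vegfa (20.1 ± 2.80) and Tek (16.3 ± 2.10) came next, and Angpt2 (7.77 ± 1.92) and Angpt1 (2.96 ± 0.734) were lowest. The libraries of neighbours in this order overlapped for Pecam1 and Cdh5, for Cdh5 and Vegfb, and for Vegfa and Tek.

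The first comparison sets HFD against LFD adipocytes, groups that differ in both diet and obesity, which cannot be told apart here. With the HFD, 5 of the 10 genes fell: the ligands Vegfb and Angpt1, both VEGF receptors, and Pecam1, which encodes an adhesion molecule of endothelial junctions. None rose. Across all 14461 genes tested, 25.0% were called lower, 26.5% higher and 51.5% in either direction (edgeR quasi-likelihood test, Benjamini-Hochberg adjusted p under 0.05). The median log2 fold change was -0.69 for the 10 genes and -0.03 for all genes. The groups did not overlap for 5 of the 10 genes, against 62.7% of all genes tested, so on that measure the 10 genes did not exceed the background.

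**Figure D1:**
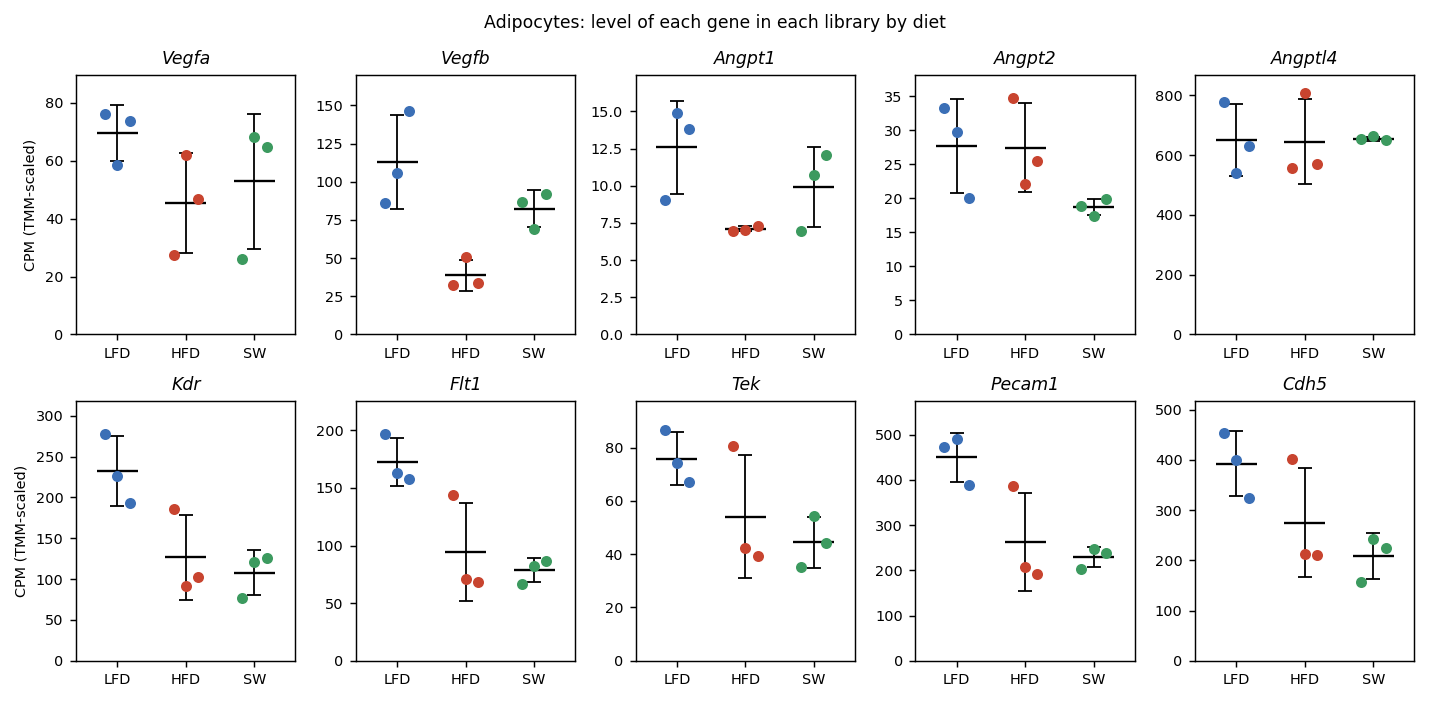
Level of each gene in the 9 adipocyte libraries, in CPM scaled by TMM factors, by diet (LFD blue, HFD red, SW green); each point is a library, the bar the mean and the whisker the SD (n = 3). Vegfb is lowest in all 3 HFD libraries, while Kdr, Flt1, Tek, Pecam1 and Cdh5 share a pattern in which HFD library 401 lies above the other 2 HFD libraries.

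Vegfb, the VEGF ligand linked to fatty acid handling by endothelium, stood at 86.3, 106 and 147 CPM in LFD libraries 404 to 406, at 32.4, 50.6 and 33.5 CPM in HFD libraries 401 to 403, and at 86.6, 68.8 and 91.8 CPM in SW libraries 407 to 409. Every HFD library lay below every LFD and SW library, and the LFD and SW ranges overlapped. The log2 fold change was -1.54 (SE 0.23, adjusted p = 0.00046) for HFD against LFD, a 2.90-fold lower level. It stayed called without each of the 6 libraries in turn, with log2 fold changes from -1.76 to -1.30.

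Vegfa, the main driver of sprouting, stood at 76.3, 58.4 and 73.7 CPM in LFD, 27.4, 61.9 and 46.7 CPM in HFD and 26.1, 68.1 and 64.7 CPM in SW adipocytes. HFD library 401 and SW library 407 were lowest, HFD library 403 also lay below the LFD range, and HFD library 402 and SW libraries 408 and 409 lay inside it. The difference between HFD and LFD, -0.61 on the log2 scale (SE 0.36, adjusted p = 0.18), did not pass, and its 95% interval from -1.40 to 0.18 includes no difference.

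Angpt1, the agonist of TEK, was low throughout, at 9.04, 14.9 and 13.8 CPM in LFD, 6.99, 7.06 and 7.29 CPM in HFD and 6.94, 10.8 and 12.1 CPM in SW adipocytes. The HFD libraries lay close together and below every LFD library, and SW library 407 was as low as they were. Its log2 fold change in HFD against LFD was -0.84 (SE 0.23, adjusted p = 0.012), and without LFD library 405 it was -0.69 with an adjusted p of 0.063.

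Angpt2 stood at 33.3, 29.7 and 20.04 CPM in LFD, 34.7, 22.0 and 25.5 CPM in HFD and 18.8, 17.4 and 19.9 CPM in SW adipocytes. The LFD and HFD ranges overlapped almost wholly, and all SW libraries lay just below the lowest LFD library. The log2 fold change in HFD against LFD was -0.02 (SE 0.21, adjusted p = 0.95).

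Angptl4 was the most abundant of the 10 in adipocytes and stood at 778, 540 and 632 CPM in LFD, 557, 809 and 570 CPM in HFD and 654, 663 and 650 CPM in SW libraries. The SW libraries were nearly equal, and the LFD and HFD ranges overlapped. The log2 fold changes were -0.01 for HFD against LFD (SE 0.19, adjusted p = 0.97, 95% interval -0.44 to 0.42) and 0.01 for SW against LFD (SE 0.19, adjusted p = 0.98, 95% interval -0.42 to 0.44).

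The receptors and junction genes, all made by endothelial cells, shared 1 pattern. Kdr, the main signalling receptor for VEGFA, stood at 278, 227 and 193 CPM in LFD, 186, 91.2 and 103 CPM in HFD and 76.3, 121 and 126 CPM in SW adipocytes. Flt1 stood at 197, 163 and 158 CPM in LFD, 144, 71.3 and 68.4 CPM in HFD and 67.0, 82.4 and 86.6 CPM in SW adipocytes. Pecam1 stood at 473, 490 and 387.6 CPM in LFD, 387.4, 208 and 193 CPM in HFD and 204, 248 and 237 CPM in SW adipocytes. For these 3 genes all HFD and SW libraries lay below all LFD libraries, with HFD library 401 just under the LFD range.

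Cdh5, the cadherin of endothelial junctions, stood at 453, 401 and 324 CPM in LFD, 401, 214 and 211 CPM in HFD and 157, 243 and 225 CPM in SW adipocytes. Tek stood at 86.4, 74.1 and 67.1 CPM in LFD, 80.7, 42.2 and 39.4 CPM in HFD and 35.1, 54.3 and 44.0 CPM in SW adipocytes. For both genes HFD library 401 lay inside the LFD range, and the other HFD and SW libraries lay below it.

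In HFD against LFD, the log2 fold changes were -0.88 (SE 0.29, adjusted p = 0.026) for Kdr, -0.87 (SE 0.26, adjusted p = 0.019) for Flt1 and -0.78 (SE 0.25, adjusted p = 0.025) for Pecam1. Cdh5, at -0.51 (SE 0.27, adjusted p = 0.14), and Tek, at -0.49 (SE 0.27, adjusted p = 0.15), did not pass. The calls rested on few libraries. With 1 library left out, 5757 to 7250 of all genes were called, against 7448 with all libraries. The number of the 10 genes called lower was 2 without LFD library 404, without LFD library 405, without HFD library 402 or without HFD library 403. Without HFD library 401, 7 were called, among them Cdh5 at -0.89 (adjusted p = 0.0097) and Tek at -0.89 (adjusted p = 0.0043). Library 401 also held more of the 20 other endothelial markers, 2368 CPM in sum, than the other HFD libraries (1358 and 1486 CPM).

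The 20 endothelial markers served as a wider list of the same cells. In HFD against LFD all 20 were called lower, with a median log2 fold change of -1.13, against -0.03 for all genes. The largest falls were in Cldn5 (-1.84, SE 0.21, adjusted p = 8.8e-05), a tight junction protein, and Rasip1 (-1.81, SE 0.15, adjusted p = 1.69e-05), a Ras effector of endothelial tubes. The count was 13 without HFD library 403 and 14 without HFD library 402. Over the 5 endothelial members and the 20 markers, the log2 fold changes had a Spearman's rho of -0.62 with transcript G+C content and 0.46 with transcript length, so the falls tended to be larger in short and G+C-rich transcripts. Per 1000 summed counts of these markers the order of the diets was another. Pecam1 held 116, 106 and 94.4 counts in LFD and 164, 140 and 142 in HFD libraries, and Tek held 21.1, 16.1 and 16.3 in LFD and 34.1, 28.4 and 29.0 in HFD libraries. Angpt2, also made by endothelium, held 8.14, 6.43 and 4.88 counts in LFD, 14.7, 14.8 and 18.8 in HFD and 7.78, 7.02 and 7.65 in SW libraries. On this measure, a description that was not tested, every HFD library lay above every LFD library for Pecam1, Cdh5, Tek, Angpt2 and Angptl4. The ranges overlapped for Kdr, Flt1, Vegfa, Vegfb and Angpt1. Angptl4 held 190, 117 and 154 counts in LFD and 235, 544.5 and 419 in HFD libraries. The markers in the divisor fell in HFD themselves, so a gene that fell less than they did tends to rise on this measure.

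**Figure D2:**
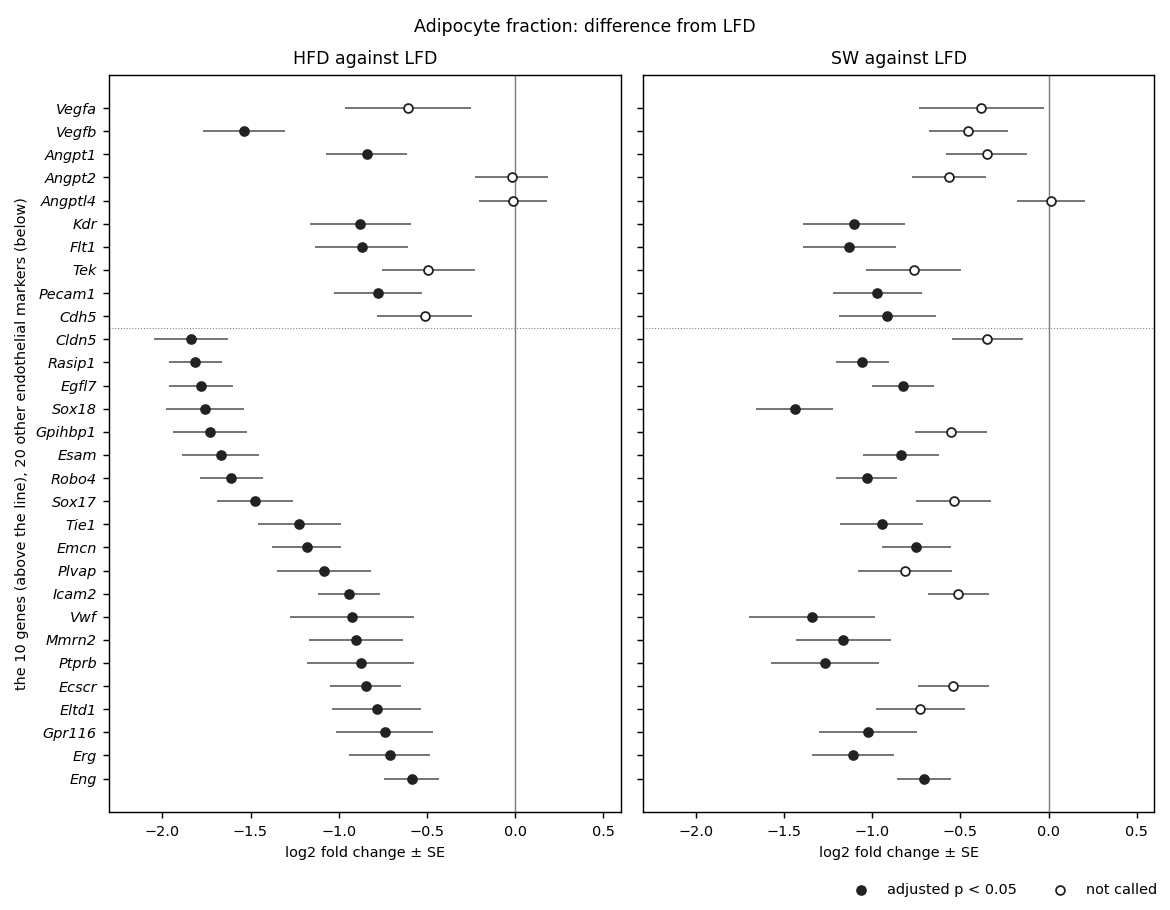
Log2 fold change ± SE of the 10 genes and of 20 other endothelial markers in adipocytes, HFD against LFD and SW against LFD (n = 3 per group, shared LFD libraries); filled points passed an adjusted p of 0.05. In HFD against LFD all 20 markers lie below 0 and are filled, while Angpt2 and Angptl4 lie close to 0.

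Other cells moved in the same comparison. Of 10 markers of pericytes and smooth muscle, the mural cells that wrap vessels, 6 were called lower and none higher (median -1.04), led by Tagln (-2.51, SE 0.20, adjusted p = 1.41e-05) and Acta2 (-2.36, SE 0.18, adjusted p = 1.21e-05), genes of the contractile apparatus. All 12 macrophage markers were higher (median 2.92), 7 of 10 adipocyte markers were lower (median -0.94) and 4 of 8 markers of progenitors and fibroblasts were higher (median 0.99). All 5 red cell markers were lower (median -1.84), with sums of 2133 to 3206 CPM in LFD and 612 to 761 CPM in HFD libraries, and 4 of 6 mesothelial markers were lower (median -1.79). Of 8 genes induced by tissue digestion, 3 were higher and 1 was lower (median 0.21). CPM values share 1 total, so a rise in some genes lowers others, and the part of these shifts in the falls of Kdr, Flt1, Pecam1, Vegfb and Angpt1 was not tested.

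Among 14 further members of the VEGF and angiopoietin families, 13 were tested in adipocytes, and in HFD against LFD 5 were lower and 1 was higher. Pgf, a ligand of FLT1, fell by 1.39 on the log2 scale (SE 0.19, adjusted p = 0.00024), and Angpt4, a ligand of TEK, fell by 1.60 (SE 0.39, adjusted p = 0.007). Nrp2, a co-receptor for VEGF ligands that macrophages also carry, rose by 0.98 (SE 0.22, adjusted p = 0.0043). Of 23 other angiogenic signals tested, 10 were lower and 3 higher. Dll4, the Notch ligand of tip cells, fell by 1.63 (SE 0.26, adjusted p = 0.00069), as did Ramp2, part of the adrenomedullin receptor, by 1.73 (SE 0.19, adjusted p = 6.82e-05). Hgf, a growth factor made by stromal and myeloid cells, rose by 3.24 (SE 0.34, adjusted p = 5.75e-05).

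Genes of the hypoxia response did not move one way. Of 16, 5 rose and 5 fell in HFD against LFD, with a median of 0.05. Car9, a carbonic anhydrase that hypoxia induces, rose by 3.40 (SE 0.41, adjusted p = 0.00013) and Hif1a by 0.72 (SE 0.14, adjusted p = 0.0024). Bnip3, a mitophagy receptor, fell by 1.15 (SE 0.23, adjusted p = 0.0022), and Ndrg1 fell by 1.06 (SE 0.20, adjusted p = 0.0016).

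Around Angptl4, 9 of 10 genes of the lipoprotein lipase axis were tested, 2 higher and 3 lower. Gpihbp1, the endothelial protein that carries lipoprotein lipase to the capillary lumen, fell by 1.73 (SE 0.21, adjusted p = 0.00013). Apoc3, an apolipoprotein that restrains lipoprotein lipase, fell by 1.85 (SE 0.37, adjusted p = 0.0023) from a low level of 1.27 to 2.17 CPM in LFD, and Cd36, a fatty acid transporter, rose by 0.64 (SE 0.19, adjusted p = 0.017). Of 12 other PPAR targets, 4 rose and 3 fell. Plin2, a coat protein of lipid droplets, rose by 1.86 (SE 0.17, adjusted p = 2.84e-05), while Pck1, an enzyme of glycerol synthesis in fat, fell by 1.98 (SE 0.48, adjusted p = 0.0062) and Fabp4, a fatty acid carrier of adipocytes and capillaries, by 1.36 (SE 0.24, adjusted p = 0.0012).

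The second comparison sets SW against HFD adipocytes. The SW mice had both lost weight and eaten the LFD for 3 weeks, which cannot be told apart here. In SW against HFD, Vegfb alone among the 10 genes passed, and it rose, by 1.08 on the log2 scale (SE 0.23, adjusted p = 0.0098), a 2.12-fold higher level. Of all genes 31.4% were called, 15.6% higher and 15.9% lower. The groups did not overlap for 2 of the 10 genes, against 48.6% of all genes. Vegfb stayed called without each of the 6 libraries in turn, with log2 fold changes from 0.96 to 1.29 and adjusted p-values up to 0.0496. Comparisons between the 3 diets share libraries: HFD libraries were low for Vegfb in both, and SW against LFD was -0.45 (SE 0.23, adjusted p = 0.20).

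Technical measures moved with Vegfb. Its longest transcript, 1281 bases with 62.6% G+C, is the shortest and the richest in G+C of the 10. Across 14321 genes, log2 fold changes in SW against HFD ran with transcript length (Spearman's rho -0.48, genes are not independent replicates). With a correction for length, Vegfb stood at 0.63 (adjusted p = 0.036) in SW against HFD and at -1.13 (adjusted p = 0.00075) in HFD against LFD. With a correction for G+C content the values were 0.70 (adjusted p = 0.032) and -1.08 (adjusted p = 0.0022). Its calls held with each correction on its own, at smaller sizes. The corrections were not applied together, so their joint part in the Vegfb values was not tested. In addition 15 genes had no count in any HFD adipocyte library but were detected in the other 6, and 44 genes showed the reverse. None of the 10 genes is among them, and the part of this division in the Vegfb values was not tested.

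None of the 5 endothelial members passed in SW against HFD. The log2 fold changes were -0.22 for Kdr (SE 0.28, adjusted p = 0.57), -0.26 for Flt1 (SE 0.26, adjusted p = 0.47), -0.27 for Tek (SE 0.27, adjusted p = 0.45), -0.19 for Pecam1 (SE 0.25, adjusted p = 0.58) and -0.40 for Cdh5 (SE 0.27, adjusted p = 0.28). For Kdr the 95% interval ran from -0.86 to 0.41. Without HFD library 401 they were between -0.04 and 0.19, and none passed. Of the 20 other endothelial markers 7 rose in SW against HFD and none fell (median 0.31), led by Cldn5 (1.49, SE 0.21, adjusted p = 0.0035) and Gpihbp1 (1.18, SE 0.21, adjusted p = 0.0058). The count of risen markers was 11 without HFD library 401 and 4 without HFD library 403. Over the 5 members and 20 markers, the log2 fold changes in this comparison had a Spearman's rho of -0.68 with transcript length and 0.42 with G+C content. Markers of other cells moved beside Vegfb and these markers: 4 of 10 adipocyte markers (median 0.57) and 4 of 5 red cell markers (median 1.15) were higher and none lower, 6 of 12 macrophage markers were lower and none higher (median -0.63), and of 10 mural cell markers 3 were higher and 1 lower (median -0.12). Their part in the rises was not tested.

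Angpt2 was -0.55 in SW against HFD (SE 0.21, adjusted p = 0.067) and did not pass, although the groups did not overlap. It passed with DESeq2 (-0.55, adjusted p = 0.048), without the filter on low counts (-0.59, adjusted p = 0.044) and without HFD library 402 (-0.71, adjusted p = 0.035). Angpt1, at 0.49 (SE 0.23, adjusted p = 0.12), passed without SW library 407 (0.68, adjusted p = 0.037), the library that stood apart from the other SW libraries. Of the further family members, Pgf rose by 0.70 (SE 0.19, adjusted p = 0.021) and Nrp2 fell by 1.11 on the log2 scale (SE 0.22, adjusted p = 0.0079).

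The third comparison sets formerly obese against lean adipocytes. In SW against LFD, 4 of the 10 genes were lower and none higher, while 17.1% of all genes were called, 6.18% lower and 10.9% higher. The groups did not overlap for 6 of the 10 genes, against 36.7% of all genes. Kdr fell by 1.10 on the log2 scale (SE 0.29, adjusted p = 0.025), Flt1 by 1.13 (SE 0.26, adjusted p = 0.015), Pecam1 by 0.97 (SE 0.25, adjusted p = 0.025) and Cdh5 by 0.91 (SE 0.27, adjusted p = 0.045). Linear levels were 2.15-fold lower for Kdr, 2.19-fold lower for Flt1, 1.96-fold lower for Pecam1 and 1.88-fold lower for Cdh5. These 4 genes tracked each other over the 9 adipocyte libraries (Pearson's r from 0.95 to 0.99 with Tek included), so they are not separate results. Tek was at -0.77 (SE 0.27, adjusted p = 0.077) with no overlap of the groups, and passed with DESeq2 (adjusted p = 0.036). The median was -0.67 for the 10 genes and 0.00 for all genes.

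These calls were near the threshold. With 1 library left out, 1678 to 2176 of all genes were called, against 2468 with all libraries. The count of the 10 was 0 without SW library 407, where the log2 fold changes were still -0.91 for Kdr, -1.03 for Flt1, -0.89 for Pecam1 and -0.74 for Cdh5. It was 1 without LFD library 404, without LFD library 405 or without SW library 408, and 2 without SW library 409. Without LFD library 406 it was 4, with Angpt2 (-0.75, adjusted p = 0.036) in place of Cdh5. The call of Cdh5 was lost whichever of the 6 libraries was left out and, with the correction for G+C content, had an adjusted p of 0.055. Of the 20 other endothelial markers 13 were lower and none higher (median -0.83), led by Sox18 (-1.44, SE 0.22, adjusted p = 0.0015), a transcription factor of endothelium, and Vwf (-1.34, SE 0.36, adjusted p = 0.028), the clotting factor stored in endothelium. That count was 7 without LFD library 405 and 8 without SW library 407. Markers of mural cells gave 5 lower of 10 (median -0.75) and macrophage markers 10 higher of 12 (median 2.54). The 8 genes induced by tissue digestion gave 5 higher (median 1.61), with sums of 1576 to 2650 CPM in SW and 568 to 1122 CPM in LFD libraries. Red cell markers gave 3 lower of 5 (median -0.76) and mesothelial markers 3 lower of 6 (median -1.29). What these shifts contributed to the falls of Kdr, Flt1, Pecam1 and Cdh5 was not tested. Over the 25 endothelial genes, the log2 fold changes had a Spearman's rho of -0.01 with G+C content and -0.56 with length.

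A further contrast set the mean of HFD and SW against LFD, so a call does not show that both groups differed from LFD. In SW against LFD alone, Vegfb (-0.45, adjusted p = 0.20) and Angpt1 (-0.35, adjusted p = 0.33) did not pass. Cdh5 did not pass in HFD against LFD, and Tek passed in neither. With HFD and SW together against LFD, 7 of the 10 genes were lower and none was higher. Of all genes 40.1% were called, 19.4% lower and 20.7% higher. The 7 genes are listed next. They were Vegfb (-1.0, adjusted p = 0.0025), Angpt1 (-0.60, adjusted p = 0.034), Kdr (-0.99, adjusted p = 0.0084), Flt1 (-1.0, adjusted p = 0.0053), Tek (-0.63, adjusted p = 0.048), Pecam1 (-0.87, adjusted p = 0.0083) and Cdh5 (-0.71, adjusted p = 0.031). Vegfb, Kdr, Flt1 and Pecam1 stayed called without each of the 9 libraries in turn, whereas the count was 4 without LFD library 405, HFD library 402 or HFD library 403 and with library size alone as the scaling. All 20 other endothelial markers were lower (median -1.05), among them Sox18 (-1.60, adjusted p = 0.00011), and over the 25 endothelial genes the rho with G+C content was -0.53.

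Across the 9 adipocyte libraries the 5 endothelial genes tracked each other, with Pearson's r from 0.95 to 0.99 over their 10 pairs of log2 CPM. In the counts of called genes in adipocytes they are therefore not 5 separate results. Angpt2 had r = 0.76 with Cdh5 and 0.67 with Kdr, while Vegfa had r = 0.39 with Kdr and Angptl4 had r = -0.16 with Kdr. The genes most like Pecam1, of 9864 genes whose mean log2 CPM reached 3, were Fgd5 (r = 0.989), Mmrn2 (0.989), Lama5 (0.986), Flt4 (0.985) and Flt1 (0.985). Those most like Vegfa were Trim16 (0.969), H6pd (0.968), Abcd2 (0.966), Cacng7 (0.966) and Ghitm (0.961). Those most like Angptl4 were Pdzd11 (0.816), Gcsh (0.811), Arfip2 (0.806), Dfna5 (0.802) and Usp30 (0.790). These are descriptions over 9 libraries that share 3 diets and a division between HFD and the rest.

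In SVCs, libraries stood apart from their group. The 2 HFD libraries differed far more than other pairs of a group (chi-square per degree of freedom 408, against 13.7 to 96.8 elsewhere). Library 411 had 33.5% mitochondrial counts and library 212 had 6.34%, and haemoglobin genes took 3.09% and 0.287%. A list of 9 liver genes such as Alb, drawn up after these values were seen, summed to 2584 CPM in library 411 and to between 16.4 and 67.9 CPM in the other SVC libraries. In library 212, 8 genes induced by tissue digestion summed to 6551 CPM, against 698 to 2649 CPM elsewhere in SVCs. What these features contributed to the HFD values below was not tested.

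In SVCs the comparison was again SW against HFD, in which diet and weight loss go together. Only Angpt2 passed among the 10, lower in SW, where 17.5% of 16319 genes were called, 11.7% lower and 5.71% higher. The groups did not overlap for 6 of the 10 genes, against 58.6% of all genes. Of the called genes 32.7% were higher, and 47.4% with DESeq2. Angpt2 stood at 2.45 CPM in the LFD library 236, at 21.4 and 13.6 CPM in HFD libraries 212 and 411, and at 6.49, 6.78 and 6.24 CPM in SW libraries 412 to 414. The SW libraries were close together, below both HFD libraries and above the LFD library. Its log2 fold change was -1.43 (SE 0.31, adjusted p = 0.040), a 2.69-fold lower level.

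The call for Angpt2 was fragile. It was lost without HFD library 212 (-0.99, adjusted p = 0.12), without SW library 412 (-1.42, adjusted p = 0.16), without SW library 413 (-1.55, adjusted p = 0.072) and without SW library 414 (-1.40, adjusted p = 0.085). It held without HFD library 411 (-1.71, adjusted p = 0.013). It was also lost with library size alone as the scaling (-1.61, adjusted p = 0.095) and with the correction for G+C content (-0.94, adjusted p = 0.13). Across 16149 genes, log2 fold changes in this comparison ran with transcript G+C content (Spearman's rho 0.57). With that correction no gene at all was called by edgeR, although 4593 had an unadjusted p under 0.05. DESeq2, without the correction, called 5222 genes.

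**Figure D3:**
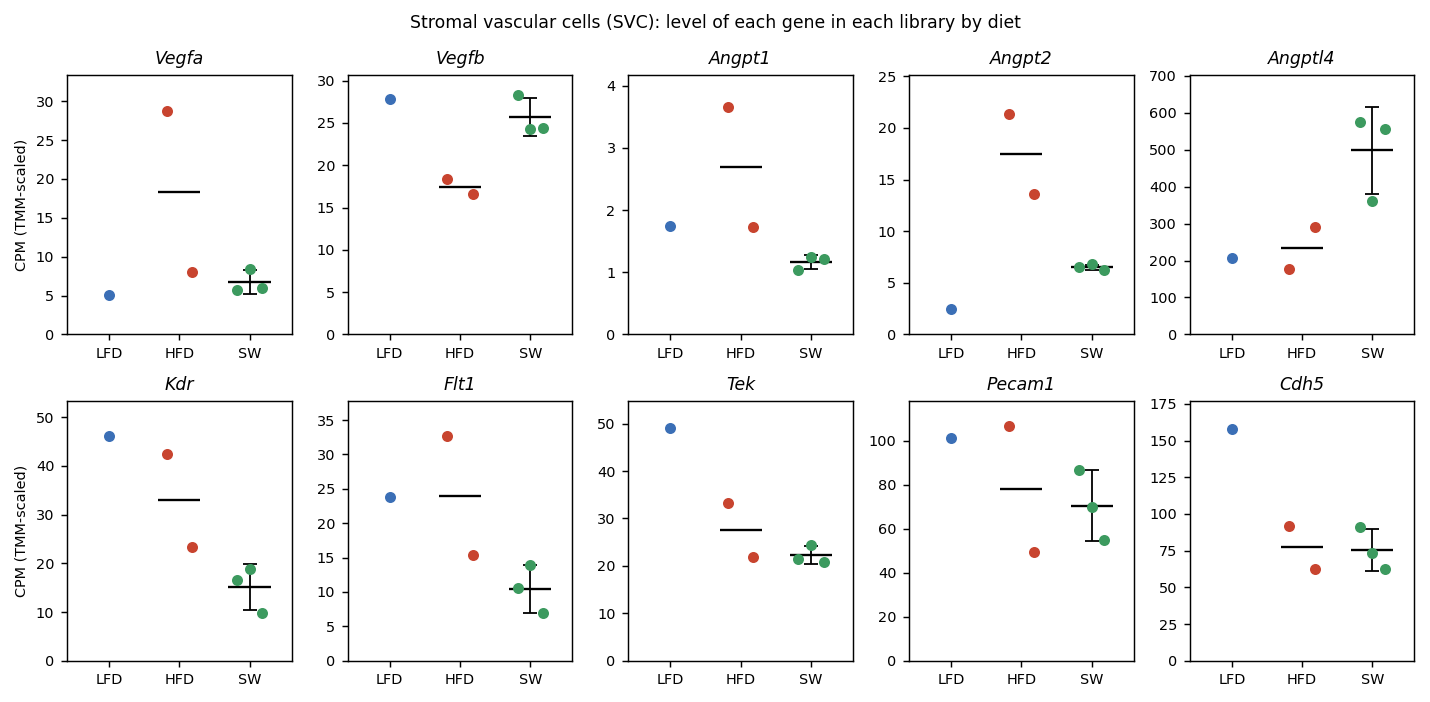
Level of each gene in the 6 SVC libraries, in CPM scaled by TMM factors, by diet; points are libraries, bars are means, and whiskers are the SD for SW (n = 3), with 2 HFD libraries and 1 LFD library. Angpt2 lies at 6.24 to 6.78 CPM in the SW libraries, below both HFD libraries, and Angptl4 lies higher in all SW libraries than in the others.

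Angptl4 lay the other way between SW and HFD in SVCs, at 206 CPM in LFD, 178 and 291 CPM in HFD and 576, 362 and 555 CPM in SW libraries. All SW libraries lay above all others. The log2 fold change of SW against HFD, 1.09 (SE 0.34, adjusted p = 0.068), did not pass in edgeR, and passed with DESeq2 (1.11, adjusted p = 0.0078) and without HFD library 411 (1.49, adjusted p = 0.027).

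Vegfa stood at 5.06 CPM in LFD, 28.7 and 8.07 CPM in HFD and 5.77, 8.47 and 6.03 CPM in SW libraries. Its high value was in library 212 alone. The log2 fold change of -1.44 (SE 0.54, adjusted p = 0.098) moved to -0.18 (adjusted p = 0.78) without library 212 and to -2.07 (adjusted p = 0.012) without library 411. Vegfb stood at 27.8 CPM in LFD, 18.4 and 16.6 CPM in HFD and 28.4, 24.3 and 24.4 CPM in SW libraries. The HFD libraries were thus the lowest for Vegfb in SVCs too, but 0.56 (SE 0.22, adjusted p = 0.11) did not pass, and the value was -0.28 (adjusted p = 0.45) with the correction for G+C content and 0.17 (adjusted p = 0.61) with that for length. Angpt1 was at 10 to 63 counts per SVC library, or 1.03 to 3.65 CPM, and its log2 fold change of -1.21 (SE 0.54, adjusted p = 0.14) became 0.36 (adjusted p = 0.65) with the correction for G+C content.

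Among the receptors, Kdr stood at 46.1 CPM in LFD, 42.5 and 23.5 CPM in HFD and 16.6, 18.9 and 9.86 CPM in SW SVCs. Flt1 stood at 23.8 CPM in LFD, 32.6 and 15.4 CPM in HFD and 10.6, 13.9 and 6.90 CPM in SW SVCs. For both genes the SW libraries lay below the HFD libraries, but Kdr (-1.12, SE 0.38, adjusted p = 0.078) and Flt1 (-1.19, SE 0.43, adjusted p = 0.089) did not pass. They passed without library 411 (adjusted p = 0.030 and 0.027), and their values were -0.56 and -0.48 without library 212.

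Tek (-0.31, SE 0.26, adjusted p = 0.39), Pecam1 (-0.15, SE 0.37, adjusted p = 0.78) and Cdh5 (-0.03, SE 0.27, adjusted p = 0.94) did not pass, and their SW and HFD ranges overlapped. Cdh5 stood at 158 CPM in LFD, 92.1 and 62.5 CPM in HFD and 90.9, 73.5 and 62.2 CPM in SW SVCs. Of the 20 other endothelial markers 3 were higher and 2 lower in SW, Vwf (2.03, SE 0.22, adjusted p = 0.036) and Eng (1.10, SE 0.26, adjusted p = 0.043) among the former, Eltd1 (-2.68, SE 0.48, adjusted p = 0.036) and Ptprb (-1.69, SE 0.44, adjusted p = 0.047) among the latter. That count of 5 was 0 without SW library 412 or 413, 1 without SW library 414, 2 without HFD library 212 and 8 without HFD library 411. Over the 25 endothelial genes, the log2 fold changes had a Spearman's rho of 0.77 with transcript G+C content, which is 56.5% in Vwf and 57.4% in Eng but 42.2% in Eltd1 and 47.6% in Ptprb. Of 14 further VEGF and angiopoietin family genes 4 were higher and 2 lower (median 0.57, against 0.03 for all genes), led by Angpt4 (2.34, SE 0.38, adjusted p = 0.036) and Flt4, the receptor of lymphatic endothelium (1.78, SE 0.31, adjusted p = 0.036), among the higher ones. The co-receptor Nrp1 was among the lower ones (-1.22, SE 0.28, adjusted p = 0.041). Of 10 mural cell markers 5 were higher and 1 lower (median 0.98). Levels in the single LFD library have no replicate check and were not tested.

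The last set of comparisons places the genes in the fractions, with all 15 libraries scaled together. In HFD mice 7 of the 10 genes were lower in SVCs than in adipocytes and none was higher, where 29.1% of 17441 genes were called, 12.9% lower and 16.2% higher. The fractions did not overlap for 8 of the 10 genes, against 51.5% of all genes. In SW mice 8 were lower and none higher, against 68.4% of genes called, 32.8% lower and 35.6% higher, and the fractions did not overlap for 9 of the 10 genes, against 70.8% of all genes. The lower genes included all endothelial members but Tek. With library size alone as the scaling, 40.9% and 41.7% of the called genes were higher in SVCs in HFD and SW mice, in place of 55.8% and 52.0%.

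**Figure D4:**
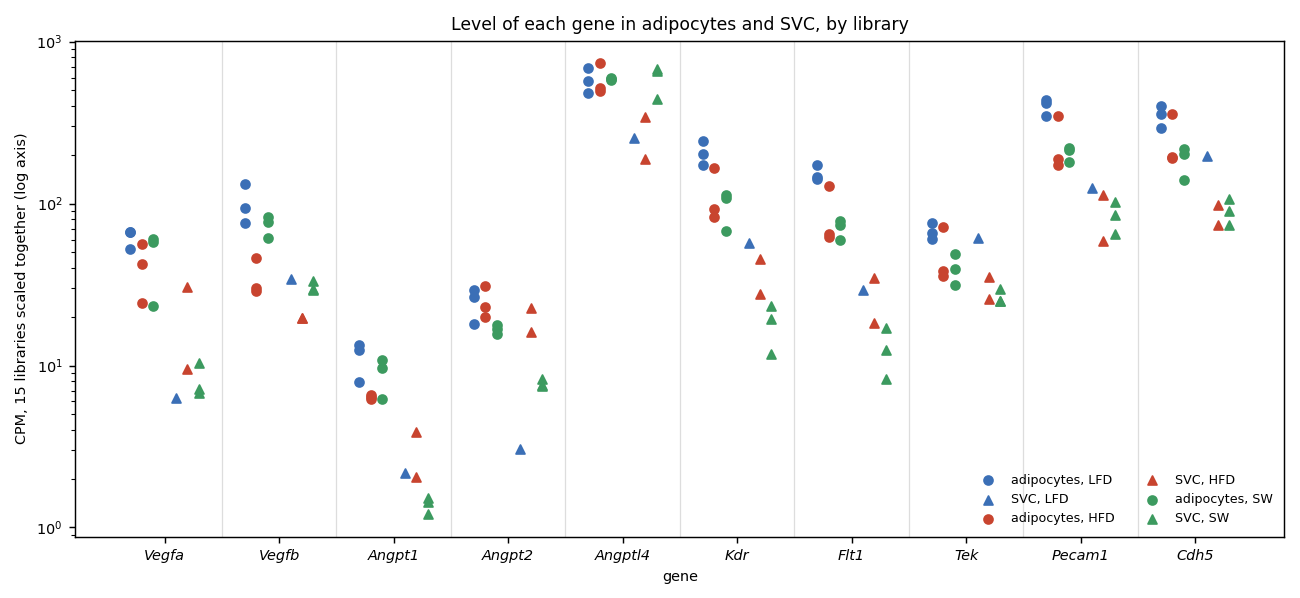
Level of each gene in every library with all 15 libraries scaled together, in CPM on a log axis; circles are adipocytes, triangles SVCs, and colours the diets. Kdr and Flt1 are lower in each SVC library than in each adipocyte library, while Angptl4 is at a like level in SW adipocytes and SW SVCs.

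In SW mice, Angpt1 was 6.32-fold lower in SVCs (log2 -2.66, SE 0.32, adjusted p = 9.1e-06), at 6.18, 9.60 and 10.9 CPM in adipocytes and 1.21, 1.52 and 1.44 CPM in SVCs. Vegfa was 5.76-fold lower (log2 -2.53, SE 0.46, adjusted p = 0.00028), at 23.2, 60.8 and 58.1 CPM in adipocytes and 6.78, 10.4 and 7.19 CPM in SVCs. Flt1 was 5.53-fold lower (log2 -2.47, SE 0.34, adjusted p = 2.71e-05) and Kdr 5.29-fold lower (log2 -2.40, SE 0.33, adjusted p = 3.04e-05). Every SVC library lay below every adipocyte library for these 4 genes.

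Smaller differences in SW mice were those of Pecam1 (log2 -1.29, SE 0.29, adjusted p = 0.0016), Vegfb (-1.26, SE 0.22, adjusted p = 0.00024), Angpt2 (-1.10, SE 0.22, adjusted p = 0.00071) and Cdh5 (-1.05, SE 0.27, adjusted p = 0.0035). All 8 calls held without each of the 6 libraries and with the correction for G+C content, although the correction moved Angpt1 to -1.05, Angpt2 to -0.57, Vegfb to -2.44 and Cdh5 to -1.60. Tek was at -0.57 (SE 0.26, adjusted p = 0.062), and at -0.02 (adjusted p = 0.95) with the correction. It passed without SW adipocyte library 407 (-0.82, adjusted p = 0.023), without SW SVC library 413 (-0.77, adjusted p = 0.042) and with library size alone (-0.97, adjusted p = 0.034). It passed as well with at least 10 counts required in every library (-0.63, adjusted p = 0.047), with thinning to the smallest library (-0.63, adjusted p = 0.048) and when only the SW libraries were fitted (-0.52, adjusted p = 0.041). Angptl4 was at 0.02 (SE 0.25, adjusted p = 0.96, 95% interval -0.52 to 0.56).

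In HFD mice the lower genes in SVCs were Flt1 (-1.68, SE 0.37, adjusted p = 0.0058), Kdr (-1.64, SE 0.37, adjusted p = 0.0064), Cdh5 (-1.53, SE 0.31, adjusted p = 0.0036), Pecam1 (-1.46, SE 0.34, adjusted p = 0.0071), Angptl4 (-1.13, SE 0.29, adjusted p = 0.012), Angpt1 (-1.10, SE 0.33, adjusted p = 0.025) and Vegfb (-0.84, SE 0.25, adjusted p = 0.025). Cdh5 stayed called without each of the 5 libraries in turn. Only Cdh5 and Angptl4 stayed called without SVC library 411. Without SVC library 212 the calls of Angptl4 (-0.76, adjusted p = 0.064) and Vegfb (-0.84, adjusted p = 0.060) were lost, and Vegfa passed, at -2.10 (adjusted p = 0.011). When only the HFD libraries were fitted the count was 2.

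The 20 other endothelial markers were mostly lower in SVCs too. In SW mice 14 were lower and 2 higher (median -1.40, against 0.09 for all genes), and in HFD mice 9 were lower and none higher (median -0.78). Of 5 lymphatic endothelial markers, 4 were higher in SVCs in SW mice and none was lower (median 1.97). The marker not called in SW mice was Prox1 (1.13, SE 0.74, adjusted p = 0.19). In HFD mice 2 of the 5 lymphatic markers were higher in SVCs, 3 were not called and none was lower (median 0.97). Among the 20 other endothelial markers the range in SW mice was wide. It ran from Eltd1 at -4.50 (SE 0.38, adjusted p = 5.72e-07) and Ptprb at -3.15 (SE 0.38, adjusted p = 9.02e-06) to Eng at 1.56 (SE 0.20, adjusted p = 1.3e-05) and Vwf at 2.23 (SE 0.33, adjusted p = 4.91e-05). Over the 5 members and 20 markers, these values had a Spearman's rho of 0.66 with transcript G+C content, and over 17231 genes the rho was 0.50. In HFD mice the rho over the 25 was 0.75. With the correction for G+C content 19 of the 20 markers were called in SW mice and 16 in HFD mice, with both directions counted together.

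**Figure D5:**
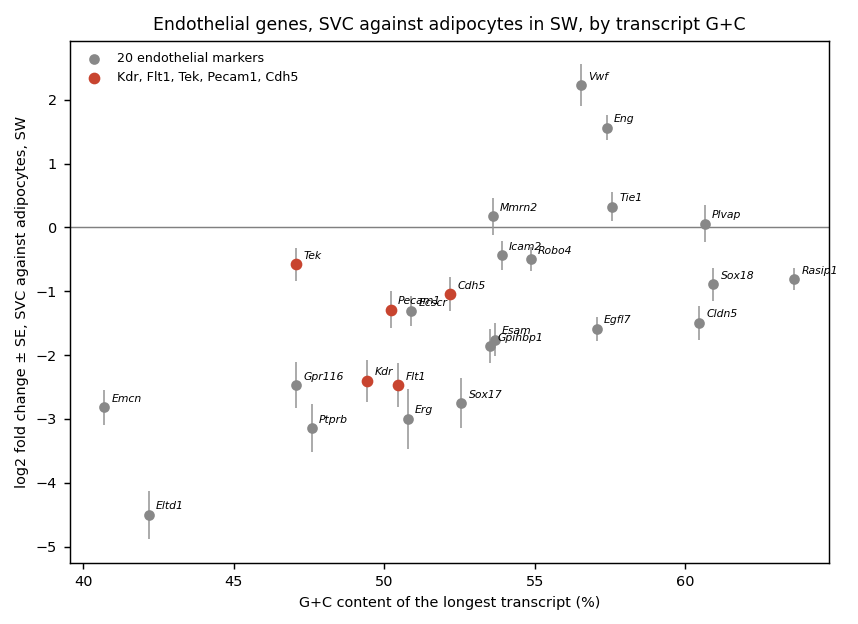
Log2 fold change ± SE of SVCs against adipocytes in SW mice for 25 endothelial genes against the G+C content of the longest annotated transcript; red points are Kdr, Flt1, Tek, Pecam1 and Cdh5. Values run from -4.50 for Eltd1 to 2.23 for Vwf, and values tend to be higher where the G+C content is higher (Spearman's rho 0.66, n = 25 genes).

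Whether SW against HFD gave unequal changes in the 2 fractions was tested by the difference between the fractions in that comparison. Of the 10 genes, 2 passed, 1 in each direction, where 27.1% of 17441 genes were called, 11.4% higher and 15.7% lower. Angptl4 was higher in SVCs by 1.15 on this scale (SE 0.38, adjusted p = 0.040): its SW against HFD value was 0.02 in adipocytes and 1.09 in SVCs, each from its own fit. Angpt1 was lower in SVCs, at -1.56 (SE 0.45, adjusted p = 0.022), from 0.49 in adipocytes and -1.21 in SVCs. Both calls were lost without SVC library 212 (0.78 with an adjusted p of 0.16, and -1.01 with an adjusted p of 0.16) and with the correction for G+C content (0.96 with an adjusted p of 0.095, and -0.36 with an adjusted p of 0.61). Over the 11 libraries left out in turn, Angpt1 stayed called in 9 cases and Angptl4 in 3. Without SVC library 411, 4 of the 10 genes were called, and without SW adipocyte library 409 none was.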

How the data were processed

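Per the labels and the study's methods, the authors digested epididymal fat and built TruSeq libraries from RNA with an integrity score above 7.5. The deposited values are expected counts per gene from RSEM after Bowtie2 alignment by the authors, whole numbers without normalization. The submitters' processing notes name mm9, and tool versions are not given in the sources used here. RSEM shares multi-mapped reads out, so counts of near-identical genes are estimates. The labels list 26 records for 18 libraries, 8 of them with 2 runs. Runs were paired-end or single-end, and the layouts were spread unevenly over the groups. By the labels, all SW adipocyte libraries were paired-end only and all SW SVC libraries had both layouts. Some HFD SVC libraries were single-end only, and the other groups were mixed. What the layout contributed to the comparisons was not tested. Value columns carry a group but no labelled replicate number: 15 were used, and 3 were not used because their names could not be matched to a group.

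Each fraction was fitted on its own, and both together, in edgeR 4.0.16 (R 4.3.3). Genes were kept by filterByExpr (minimum count 10), libraries were scaled by TMM, and all groups entered a robust quasi-likelihood fit without covariates. A gene was called at a Benjamini-Hochberg adjusted p under 0.05 over all genes tested. The SE is the log2 fold change over the root of its F statistic, and 95% intervals use the fit's own degrees of freedom. Alternatives were RLE and upper-quartile factors, library size alone, other filters, DESeq2 1.42.0, limma-voom (limma 3.58.1), thinning to the smallest library, only the groups compared, each library left out and, added after seeing the data, lowess corrections for transcript G+C content and length. Transcripts are the longest per gene in GENCODE M21 (GRCm38), found for 98.8% to 99.0% of genes tested. The tests were first run on simulated data. Tie1, Gpihbp1 and Robo4 stand both among the 20 endothelial markers and in another list. Members, gene lists and tests were chosen with earlier results of these data known. Genes named are the 10 and, per list and comparison, up to 2 of the largest called rises and falls with at least 10 counts on average. Alb, and Prox1 as a marker not called, were named after their values were seen. Plots were drawn with matplotlib 3.10.9 in Python 3.11.15, from tables made with pandas 2.3.3 on numpy 2.4.6.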

Additional observations from a re-analysis of the deposited data

Results flagged for a closer look

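Angptl4 and Angpt1 were flagged because SW against HFD gave unequal changes in SVCs and adipocytes by a test of the difference itself. They are 2 of the 10 genes, where 27.1% of all genes tested were called, so the 10 genes did not exceed the background. For Angptl4 the difference, SVC minus adipocytes, was 1.15 on the log2 scale (SE 0.38, adjusted p = 0.040, edgeR), and all 3 SW SVC libraries (362 to 576 CPM) lay above both HFD SVC libraries (178 and 291 CPM), while SW adipocytes (650 to 663 CPM) lay within the HFD range (557 to 809 CPM). For Angpt1 the difference was -1.56 (SE 0.45, adjusted p = 0.022), on 10 to 63 counts per SVC library. Neither passed without HFD SVC library 212 or with the correction for G+C content. With each of the 11 libraries left out Angptl4 passed in 3 cases and Angpt1 in 9.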

How the results depend on the processing

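No paired analysis was possible because the columns carry no replicate numbers that the labels give. Of 1400 recomputed fold changes of the 10 genes, none reversed past the threshold, 91 lost a call, 26 gained one, and 67 changed sign with no call in either fit.

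With library size alone as the scaling, 3 of the 10 genes were called for HFD against LFD in adipocytes, 4 for HFD and SW together against LFD, 0 for SW against HFD in SVCs and 1 for the difference between the fractions. That scaling moved the median of all genes by -0.11 in SW against HFD adipocytes, -0.23 and -0.37 in SVCs against adipocytes (HFD, SW) and -0.11 in the difference; the minimum of 10 counts in every library moved it by -0.15 and fitting only the groups compared by -0.10 in SVCs against adipocytes (SW). In SW against HFD adipocytes 2 were called without a filter and with DESeq2; in SVCs 3 with DESeq2 and 0 with the correction for G+C content. In SVCs against adipocytes of HFD mice, 2 were called when only the groups compared were fitted. For the difference between the fractions, 1 was called with limma-voom and 0 with the correction for G+C content. The cause was not tested.

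With 1 library left out, the counts ranged from 2 to 7 (HFD against LFD), 1 to 2 (SW against HFD), 0 to 4 (SW against LFD) and 4 to 7 (HFD and SW together) in adipocytes, 0 to 5 in SVCs, 2 to 7 (HFD) and 8 to 9 (SW) between fractions, and 0 to 4 for the difference. Counts over all genes moved by over 1.5 times for SW against HFD in SVCs, from 2849 to 0 (library size alone; 5864 at an unadjusted p under 0.05), 0 (G+C content; 4593), 5222 (DESeq2) and 1557 (limma-voom), for SVCs against adipocytes in HFD mice from 5078 to 3002 (library size alone) and 2030 (only the groups compared), and for the difference from 4727 to 2291 (G+C content). Leaving out 1 library gave 1522 to 4290 genes, against 4546 with all libraries, for SW against HFD in adipocytes (lowest without HFD library 403), 0 to 6213 in SVCs (0 without SW library 412 or 413), 2528 to 7044 between fractions in HFD mice (lowest without SVC library 411) and 2936 to 6622, against 4727, for the difference (lowest without SVC library 212). For HFD and SW together against LFD it gave 4069 to 6542 genes, against 5802 with all libraries. Between fractions in SW mice it gave 10690 to 11558 genes, against 11925. Of the 10 genes Angpt1 had the fewest counts, 10 in 2 SVC libraries.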
